A study of Mus musculus with 12 samples.

Results

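The 9 mouse Pax genes, Pax1 to Pax9, encode developmental transcription factors that share a DNA-binding paired domain. They were examined here in a list of H3K27me3 sites from iMEF cells, a line of immortalized mouse embryo fibroblasts. The mark is a histone H3 that carries 3 methyl groups on its lysine 27. The members were all Pax genes of the mouse, 9 of the 21755 protein-coding genes on chromosomes 1 to 19 and X in the GENCODE annotation of GRCm38. A site was assigned to a member when it overlapped the gene body, from annotated gene start to gene end, extended by 20 kb on either side. By this rule 84 of the 101389 sites in the list belonged to a Pax gene, and no site was assigned to more than 1 of them.

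The study asked how H3K27me3 responds when ASH2L is removed. The iMEF cells had floxed alleles of Ash2l and a Cre-ER recombinase that can be switched on, exon 4 of the endogenous Ash2l had been deleted, and human ASH2L with an N-terminal FKBP12F36V tag was supplied by a lentiviral construct, so untreated and treated cells alike lived on the tagged protein. The compound dTAG directs this protein to degradation, and the study worked mainly with the single clone NG3. H3K27me3 was measured by chromatin immunoprecipitation and sequencing in 8 libraries. Of these 2 came from untreated cells and 2 from each time of dTAG treatment, which were 16 h, 24 h and 48 h. They stood beside 4 input libraries without antibody, 2 from untreated and 2 from cells treated for 48 h. The deposited list joins the sites of all libraries and gives a chromosome, a start and an end for each, with no value per library. Depth per library is therefore unknown here, no difference between time points could be tested, no replicate error exists for any value below, and all values describe the pooled list.

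H3K27me3 is placed by Polycomb repressive complex 2 and typically lies over genes that a cell type keeps silent. Broad stretches over the genes of developmental transcription factors are a textbook feature of this mark, often around promoters rich in the dinucleotide CpG. ASH2L belongs to the COMPASS/KMT2 complexes, which methylate lysine 4 of the same histone. By paired-domain similarity the Pax genes form 4 subgroups, namely Pax1 with Pax9, Pax2 with Pax5 and Pax8, Pax3 with Pax7, and Pax4 with Pax6.

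Of the 9 members 7 lay under H3K27me3 sites and Pax8 and Pax9 did not. A site lay within 1 kb of a transcription start site (TSS) in 7 of 9 Pax genes, against 26.9% of all protein-coding genes. A site lay directly over a TSS in 7 of 9, against 21.4%. At least 50% of the gene body was covered in 7 of 9, against 10.1%, and a site of at least 10 kb overlapped the gene body in 7 of 9, against 6.56%. The same 7 genes met each of these 4 rules. If only the centre of a site was counted within 1 kb, Pax1, Pax4 and Pax5 remained, 3 of 9 against 18.5% of all protein-coding genes, since the sites of the other 4 are wide and centred elsewhere. Each gene without a site has a relative with one in its own subgroup, Pax1 for Pax9 and Pax2 and Pax5 for Pax8.

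The promoters of these subgroups are shown to let the covered genes be read against their uncovered relatives. Each sequence is from RefSeq on GRCm38.p6, runs 5′ to 3′ on the strand of the gene from 250 bases before a start to 50 bases after it, and has its CpG dinucleotides in capitals. In the first pair, the Pax1 promoter at chr2:147364744-147365043 (plus strand) lay wholly within a site, and the Pax9 promoter at chr12:56695221-56695520 (plus strand) had no covered base.
Pax1: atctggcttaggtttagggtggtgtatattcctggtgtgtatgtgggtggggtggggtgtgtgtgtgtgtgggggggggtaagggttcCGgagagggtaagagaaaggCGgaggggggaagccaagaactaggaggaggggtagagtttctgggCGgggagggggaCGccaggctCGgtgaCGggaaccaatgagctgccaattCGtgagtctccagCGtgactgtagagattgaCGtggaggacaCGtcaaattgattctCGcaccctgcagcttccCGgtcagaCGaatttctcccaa
Pax9: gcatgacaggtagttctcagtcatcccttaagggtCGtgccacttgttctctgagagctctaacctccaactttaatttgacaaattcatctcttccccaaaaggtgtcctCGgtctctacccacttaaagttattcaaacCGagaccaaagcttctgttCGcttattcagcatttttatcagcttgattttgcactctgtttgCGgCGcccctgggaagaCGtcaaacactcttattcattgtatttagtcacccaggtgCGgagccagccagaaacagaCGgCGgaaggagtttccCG

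In the second subgroup, the Pax2 promoter at chr19:44756656-44756955 (plus strand) and the Pax5 promoter at chr4:44710645-44710944 (minus strand) were wholly covered, and the Pax8 promoter at chr2:24475550-24475849 (minus strand) was not covered.
Pax2: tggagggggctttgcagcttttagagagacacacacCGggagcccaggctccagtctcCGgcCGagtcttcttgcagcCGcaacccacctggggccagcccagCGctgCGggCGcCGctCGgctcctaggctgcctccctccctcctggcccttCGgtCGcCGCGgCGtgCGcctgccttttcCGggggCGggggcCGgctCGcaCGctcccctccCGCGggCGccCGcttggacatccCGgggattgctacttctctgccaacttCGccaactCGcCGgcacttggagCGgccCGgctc
Pax5: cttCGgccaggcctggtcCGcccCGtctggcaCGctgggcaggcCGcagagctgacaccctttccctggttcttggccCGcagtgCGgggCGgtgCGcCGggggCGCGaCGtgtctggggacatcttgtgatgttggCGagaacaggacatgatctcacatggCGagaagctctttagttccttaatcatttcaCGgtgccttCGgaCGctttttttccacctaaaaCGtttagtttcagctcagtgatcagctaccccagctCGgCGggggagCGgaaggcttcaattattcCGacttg
Pax8: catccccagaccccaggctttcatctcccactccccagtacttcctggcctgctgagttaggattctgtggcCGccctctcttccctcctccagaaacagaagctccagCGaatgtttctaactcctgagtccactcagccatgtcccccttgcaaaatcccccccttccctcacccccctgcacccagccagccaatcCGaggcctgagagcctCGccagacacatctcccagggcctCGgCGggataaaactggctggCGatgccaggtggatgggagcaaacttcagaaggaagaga

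Promoters were available for 7 members, 10 in all, and for neither Pax3 nor Pax4. Among these 10, the 2 uncovered promoters were among the 3 with the fewest CpG. The Pax2 promoter printed above had the most CpG of its 3 starts. Pax9 had 11 CpG and Pax8 7, while the covered promoters had 13 at Pax1, 7, 23 and 30 at the 3 starts of Pax2, 23 at Pax5, 18 and 16 at the 2 starts of Pax6 and 17 at Pax7. Over all 32841 promoters of the same length the median was 7, with quartiles of 3 and 20. Thus Pax8 and the first start of Pax2 held the same number, and fewer CpG were found in 47.9% of all promoters, while the printed Pax2 promoter exceeded 88.3% of them. GC content was lowest at the second listed start of Pax6, with 46.3%, and at Pax9, with 47.0%, and highest at the printed Pax2 promoter, with 71.7%, beside a median of 52.7% over all promoters. The motif TATAAA, searched on both strands, occurred in 0 of the 10 member promoters and in 13.6% of all promoters. An absent match says only that these letters are not in the window.

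**Figure D1:**
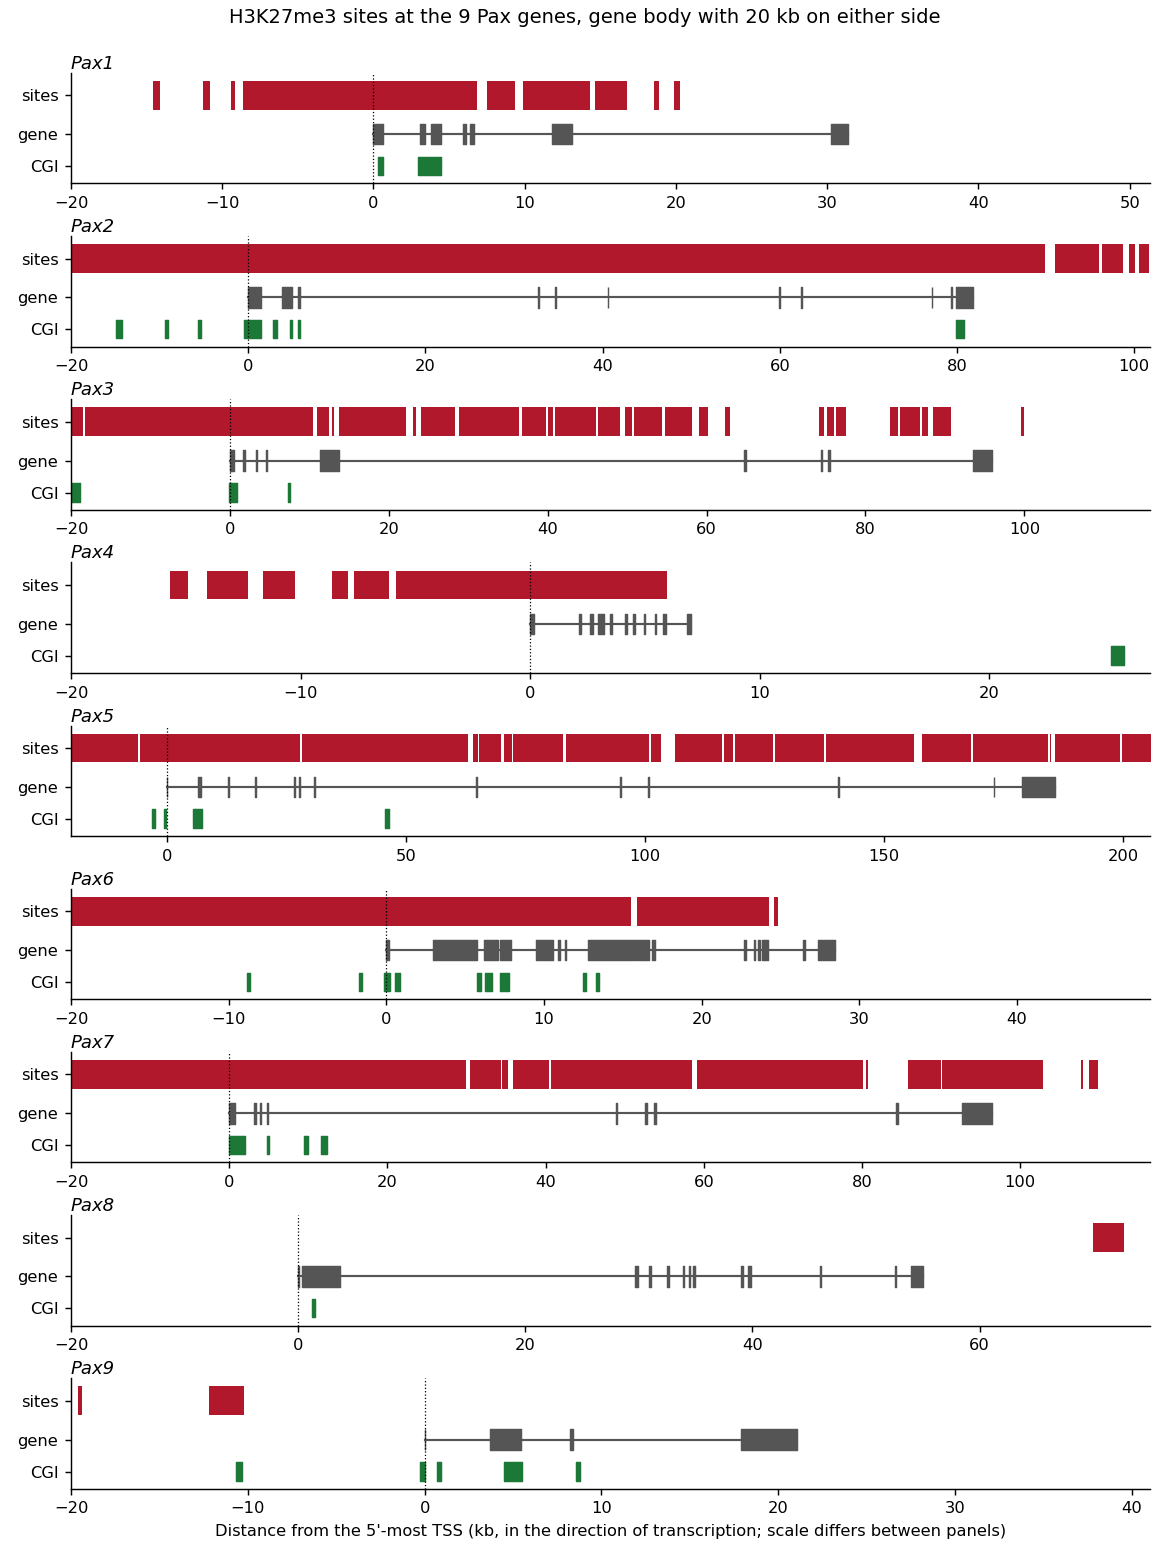
Sites of H3K27me3 (red), merged exons of each gene (grey) and CpG islands (CGI, green) at the 9 Pax genes, drawn along the distance from the 5′-most TSS (dotted line) in kb in the direction of transcription, each panel with its own scale and cut at 20 kb on either side of the gene. Red covers the dotted line in 7 panels, while Pax8 has 1 site beyond its 3′ end and Pax9 has 2 sites upstream.

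Coverage of the gene body ran from 0 to 100% between members. It was 100% at Pax2, 93.8% at Pax5, 92.1% at Pax7, 85.1% at Pax4, 85.0% at Pax6, 66.2% at Pax3, 51.0% at Pax1 and 0 at both Pax8 and Pax9. The median of the 9 genes was 85.0%. Over all protein-coding genes the median was 0, since 69.4% of them had no covered base, and the 90th and 95th percentiles were 50.3% and 85.0%. Set against genes within a factor of 2 of their own length, Pax2 exceeded 99.9%, Pax5 99.8%, Pax7 99.3%, Pax6 97.2%, Pax3 96.1%, Pax4 93.0% and Pax1 92.1%. Without replicates the order cannot be set against an error. When gene ends, flanks and the treatment of narrow sites were varied, Pax5, between 93.2% and 100%, stayed above Pax7, between 85.5% and 94.8%, under each setting tried. Pax2, between 97.8% and 100%, stayed above both, except that Pax5 also reached 100% once neighbouring sites closer than 3000 bp were joined. The order of Pax4 and Pax6 turned, since Pax6 was higher where flanks were added, with 64.6% against 38.2% for flanks of 20 kb, and where sites were joined. Pax1 was the lowest of the 7 under each setting but those that changed its gene end, where its 88.6% or 91.3% stood above Pax3, Pax4 and Pax6.

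**Figure D2:**
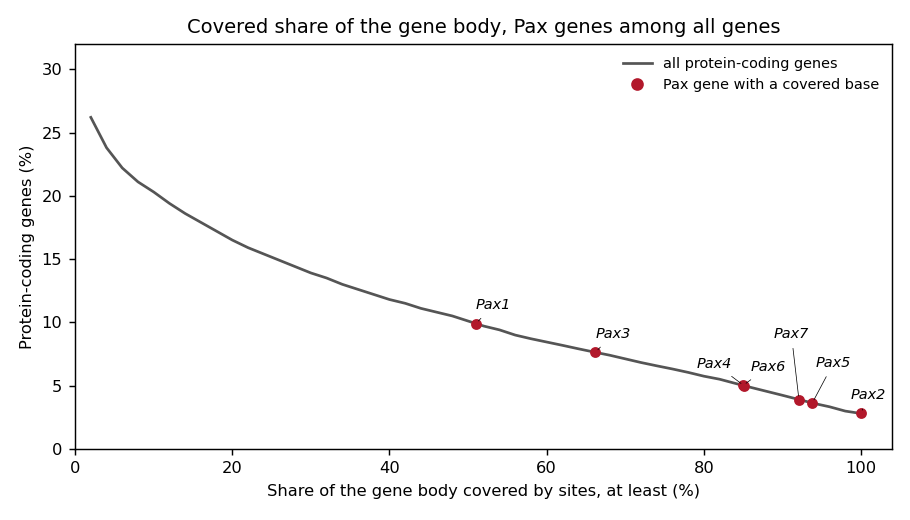
The line gives the share of all protein-coding genes (y axis, percent) whose gene body is covered by H3K27me3 sites to at least the share on the x axis (percent), and the red points place the 7 Pax genes with a covered base on it. Pax1 sits at 51.0% and Pax2 at 100%, with the other 5 between them.

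Pax1, which acts in the sclerotome that forms the vertebral column, was covered over its 5′ part. The gene (ENSMUSG00000037034.16, chromosome 2, 147361925 to 147393295, plus strand, 31371 bp) had 9 sites in its window, 6 of which touched the gene. A site of 15449 bp, from 147353327 to 147368775, held all 3 TSSs and reached from 8598 bp upstream of the gene start to 6850 bp into the gene. The 5′ 50% of the gene body was covered to 90.6% and the 3′ 50% to 11.4%, and the coding sequence was covered wholly. The last of the 7 merged exons, at the far 3′ end, had no covered base. The share of Pax1 therefore turned on the gene model: it was 88.6% over the longest protein-coding transcript and 91.3% over the RefSeq gene, an alternative chosen after seeing the data. The upstream 20 kb were covered to 48.4%, and the downstream 20 kb not at all. The nearest protein-coding genes are far away and were themselves covered, Nkx2-2, 167681 bp upstream, to 97.0% and Foxa2, 649581 bp downstream, to 100%.

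Pax9, the relative of Pax1 that is needed for teeth, palate and pharyngeal pouch derivatives, had no covered base between its ends. The gene (ENSMUSG00000001497.18, chromosome 12, 56691767 to 56712822, plus strand, 21056 bp) had 3 TSSs, none with a site within 1 kb. Both of its sites lay upstream, one of 237 bp (56672147 to 56672383) and one of 1958 bp (56679599 to 56681556), whose near end was 10211 bp from the 5′-most TSS. Downstream, the next site was 275074 bp from the gene end. Within 500 kb on either side there were 117 sites, which covered 16.7% of the bases, so the stretch around Pax9 was not free of sites. The nearest protein-coding gene upstream, Nkx2-9, a homeobox gene 78482 bp away, was covered to 100%, and Slc25a21, which overlaps the 3′ end of Pax9 on the other strand, was covered to 0.551% with a site over a TSS.

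Pax2, which is needed for kidney, optic stalk and inner ear, was covered over its whole gene body. The gene (ENSMUSG00000004231.15, chromosome 19, 44756045 to 44837871, plus strand, 81827 bp) lay entirely within a single site of 114741 bp, from 44731205 to 44845945. Only 3 sites in the whole list were wider, and 0.00395% of all sites were at least as wide. The site reached 24840 bp upstream of the gene start and 89900 bp downstream of it, and covered all 3 TSSs and all 11 merged exons. After sites less than 3000 bp apart were joined, the stretch around Pax2 was 302908 bp long (44583316 to 44886223) and began 172729 bp upstream of the gene. It held no other protein-coding gene. The neighbours Hif1an and Slf2, on either side of it, had no covered base.

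Pax5, the factor that commits lymphoid progenitors to the B cell lineage, is the longest member and was covered over nearly its whole length. The gene (ENSMUSG00000014030.15, chromosome 4, 44524757 to 44710487, minus strand, 185731 bp) had 21 sites in its window and 17 in the gene body, and all 7 TSSs were covered. The site over the upstream start measured 33418 bp (44682653 to 44716070), and the next one inward measured 34726 bp, the widest of the gene. The 5′ and 3′ parts, each 50% of the gene body, were covered to 96.5% and 91.1%, and the flanks of 20 kb to 98.1% upstream and 96.8% downstream. Pax5 thus had coverage on both sides of the gene, and its joined stretch of 274242 bp ran 44843 bp past the gene end. The adjacent genes Melk and Zcchc7 had no covered base.

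Pax8, which specifies thyroid follicular cells and acts with Pax2 in the kidney, was the member with the least H3K27me3 around it. None of its 7 TSSs was covered (ENSMUSG00000026976.15, chromosome 2, 24420560 to 24475599, minus strand, 55040 bp). Its only site, of 2800 bp (24402858 to 24405657), lay beyond the 3′ end inside the neighbour Psd4, which was covered to 13.2%. The distance from that site to the nearest annotated Pax8 TSS was 17425 bp. The upstream site nearest to the 5′-most TSS was 29835 bp away. Within 500 kb on either side, 44 sites covered 5.08% of the bases, the lowest share of the 9 genes, against 57.1% around Pax2 and 37.2% around Pax5.

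Pax3, a factor of neural crest and muscle progenitors, was covered by the largest number of sites. The gene (ENSMUSG00000004872.15, chromosome 1, 78101267 to 78197134, minus strand, 95868 bp) had 25 sites in its window and 23 in the gene body. The site over its 3 TSSs measured 28668 bp (78186677 to 78215344), with 18210 bp upstream and 10457 bp downstream of the gene start. Coverage was 90.5% in the 5′ 50% of the gene body and 41.9% in the 3′ 50%. The longest gap between neighbouring sites in any member, 11223 bp, lay in this 3′ part, and 2 of the 9 merged exons had no covered base. Upstream 98.5% of 20 kb were covered and downstream 2.27%. Of the adjacent genes, Sgpp2 was covered to 17.5%, and Epha4 had no covered base but a site within 1 kb of a TSS.

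Pax7, which marks muscle satellite cells, had a wide site over its start, as Pax3 did, and was covered further into the gene. The gene (ENSMUSG00000028736.13, chromosome 4, 139737062 to 139833528, minus strand, 96467 bp) is about as long as Pax3 and had 10 sites in its body. The site over both TSSs measured 56504 bp (139803643 to 139860146) and ranked 34 in width in the whole list. It reached 26618 bp upstream and 29885 bp downstream of the gene start. The 5′ 50% of the gene body was covered to 96.7% and the 3′ 50% to 87.4%, against 41.9% for the 3′ part of Pax3. Of the adjacent genes, the taste receptor gene Tas1r2 was covered to 36.8%, and Klhdc7a had no covered base.

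Pax4, which is required for insulin-producing beta cells of the pancreas, is the shortest member and was covered by 1 site. That site of 11816 bp (28443379 to 28455194) held all 4 TSSs and 5975 bp of the 7020 bp gene (ENSMUSG00000029706.15, chromosome 6, 28442334 to 28449353, minus strand). Of the sites over the 5′-most TSS of the 7 covered genes it was the narrowest, with 5841 bp upstream and 5974 bp downstream of the gene start. A further 5 sites followed upstream, where 60.0% of 20 kb were covered, and none followed downstream. Fscn3, whose near end lies 3711 bp past the end of Pax4, had no covered base.

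Pax6, needed for eye, brain and pancreatic islets, has 24 annotated TSSs, and every one of them was covered. In the gene (ENSMUSG00000027168.21, chromosome 2, 105668900 to 105697364, plus strand, 28465 bp) 22 starts lay in a site of 37623 bp (105646808 to 105684430) and 2 in the next site of 8407 bp. A further site of 263 bp ended the series before the 3′ end of the gene, and the last stretch had none. The next site downstream began 308506 bp beyond Pax6. Elp4, which ends 3662 bp from Pax6 on the other strand, had no covered base. Of the non-coding genes at the start, Paupar lay wholly under the widest site, and Pax6os1 was covered to 39.3%.

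**Figure D3:**
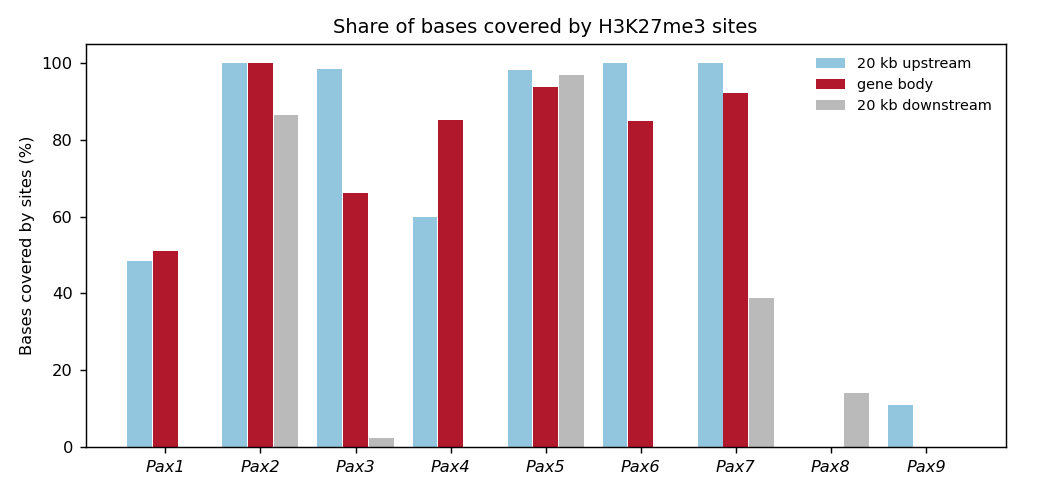
Bars give the percent of bases covered by H3K27me3 sites for each Pax gene in the 20 kb upstream of the gene (blue), the gene body (red) and the 20 kb downstream (grey). There are no error bars because the list is pooled. The blue bar is higher than the grey bar in all 7 genes with a covered gene body.

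In all 7 covered Pax genes, the 20 kb upstream were covered to a larger share than the 20 kb downstream, with medians of 98.5% and 2.27%. Among all 4650 protein-coding genes with a site over a TSS, 64.9% had the higher share upstream, with medians of 26.4% and 10.9%. Among the 1189 whose site over a TSS was at least 10 kb wide, as it was in the 7 Pax genes, 64.4% had it, with medians of 71.5% and 46.9%. Within the gene bodies the 5′ 50% was covered more fully than the 3′ 50% in 6 of the 7, and Pax2 was covered wholly in both. Of the 1189 genes, 48.4% had the larger share in the 5′ part and 17.4% in the 3′ part. The joined stretches began between 14549 bp (Pax1) and 172729 bp (Pax2) upstream of the gene start. They stopped short of the gene end in 5 genes, by 32957 bp at Pax3, 15701 bp at Pax7, 11129 bp at Pax1, 3592 bp at Pax6 and 1045 bp at Pax4, and ran past it at Pax2 and Pax5. At Pax7 this rests on 1 gap of 5018 bp, longer than the joining distance of 3000 bp, since a separate site of 12756 bp (139730610 to 139743365) lay over the gene end and beyond it. At Pax3 the stretch ended at the gap of 11223 bp, and further sites lay beyond that gap in the gene body, down to 78106326. The stretch stopped short in 40.1% of the 1189 genes. In none of the 7 did it overlap another protein-coding gene, which held for 50.6% of the 1189.

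Covered bases were richer in G and C than uncovered bases of the same gene body in all 6 genes that had both. The GC content was 49.3% against 38.3% at Pax1, 44.4% against 38.8% at Pax3, 48.2% against 47.4% at Pax4, 49.6% against 40.9% at Pax5, 50.6% against 38.3% at Pax6 and 52.7% against 45.7% at Pax7. The contrast was least at Pax4. Covered bases were also the richer ones in 87.5% of the 783 genes with both kinds among those with a site of at least 10 kb over a TSS, so this is not a trait of the Pax genes alone. Pax8 and Pax9, uncovered throughout, had 45.6% and 43.5%, above the uncovered parts of Pax1, Pax3, Pax5 and Pax6. Base composition affects amplification and mapping as well, and its part in these differences was not tested.

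The CpG islands of the covered Pax genes, other than Pax4, lay under sites, as most islands of similarly covered genes did. The windows of the 9 genes held 38 islands, of which 32 were covered to at least 50% and 6 not at all. All 31 islands at Pax1, Pax2, Pax3, Pax5, Pax6 and Pax7 were covered, including the longest, of 2040 bp, at the start of Pax7. In the windows of the 1189 protein-coding genes with a site of at least 10 kb over a TSS, as these Pax genes have, 72.8% of the islands were covered to at least 50%. Within 1 kb of a TSS there were 21 islands, 17 of them covered, and the other 4 belonged to Pax8, with 1 of 320 bp, and Pax9, with 3 of up to 1004 bp. Of the islands within this distance, 93.2% were covered to at least 50% in those 1189 genes and 22.0% in all protein-coding genes. An island at a start that fell short of 50% was thus the common case over all protein-coding genes. Those at Pax8 and Pax9 had no covered base, and how common that is was not counted. Pax9 also had the reverse case, an island of 289 bp about 10500 bp upstream that lay wholly within its 1958 bp site. At Pax4 all TSSs were covered without an island within 1 kb, and its single island, of 553 bp and 22614 bp from a TSS, was uncovered.

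The sites at the Pax genes were wide for this list. The 84 sites had a median width of 2236 bp, quartiles of 760.2 and 8550.5 bp and a range of 213 to 114741 bp. The 95% order-statistic interval of the median, 1244 to 3904 bp, treats neighbouring sites as independent. Since Pax3 held 25 of the sites and Pax5 21, the interval is no error over genes or libraries. All sites of the list had a median of 676 bp. The interval does not cover the choice of sites: the Pax median was 3474 bp without flanks and 4588 bp with sites of at least 1000 bp (2233.5 bp in the list), and 7769 bp or 17135 bp once sites less than 1000 bp or 3000 bp apart were merged (1443 bp and 2497 bp in the list). Sites of at least 10 kb numbered 19, or 22.6% of the Pax sites against 2.35% of the list, and held 76.5% of the bases in Pax sites. A wide site touches a window more easily than a narrow one, and the 64510 sites in the same windows of any protein-coding gene had a median of 740 bp, with 3.11% of at least 10 kb. Of all protein-coding genes, 11.9% had such a wide site in the window.

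Sites over a TSS were compared in like manner. The 9 Pax sites over a TSS, of which Pax5 and Pax6 had 2 each, ranged from 1116 bp at an internal start of Pax5 to 114741 bp at Pax2, with a median of 28668 bp, and 7 of them reached 10 kb. The 5509 sites over a start of any protein-coding gene had a median of 4288 bp, and 20.9% reached 10 kb. By gene, the widest site over a TSS had a median of 33418 bp in the 7 covered Pax genes and of 4939 bp in all 4650 genes with such a site. In 20.8% of these genes it was at least as wide as the 11816 bp of Pax4. Among sites that held no TSS of the gene the members differed. Their median width was 9764 bp over 19 sites at Pax5 and 3713 bp over 11 at Pax7, but 417.5 bp over 8 at Pax1, below the median of the list. Such sites of at least 10 kb numbered 9 at Pax5 and 3 at Pax7, and the other members had none.

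**Figure D4:**
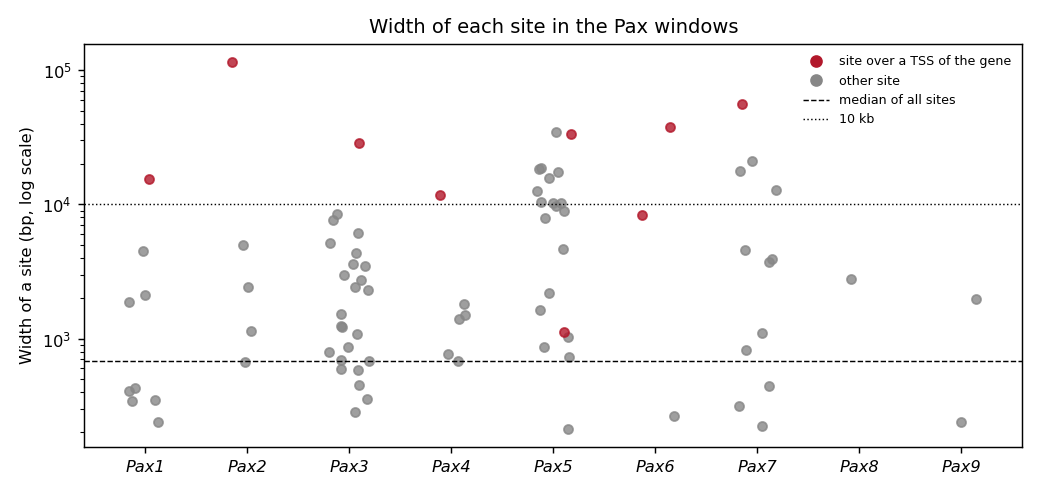
Each point is 1 of the 84 sites in the windows of the 9 Pax genes, with its width in bp on a log scale. Red points are sites over a TSS of the gene, the dashed line is the median of all sites in the list (676 bp) and the dotted line 10 kb. The widest point of Pax2 is at 114741 bp, and no site of Pax8 or Pax9 is above 2800 bp.

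The covered stretches were broken by short gaps. Inside the gene bodies 54 gaps lay between neighbouring sites, 22 at Pax3, 16 at Pax5, 9 at Pax7, 5 at Pax1 and 2 at Pax6. Pax2 and Pax4 had none. The gaps measured 10 to 11223 bp with a median of 398 bp, 45 were under 1000 bp, and 24 were between 200 and 400 bp. Repeat-masked sequence made up 16.3% of the bases in sites and 31.1% of those in gaps, with the larger share in gaps at each of the 5 genes, as in 90.1% of the 698 protein-coding genes with a gap and a site of at least 10 kb over a TSS. At Pax5 it was 15.5% in sites and 50.3% in gaps, and at Pax3 20.1% and 23.1%. Reads that map to repeats are harder to place, and the part of the repeats in the gaps was not tested. Only 10 of the 54 gaps were masked to at least 50%, and 5 held no masked base.

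Both kinds of gap are shown by an example of similar length, printed on the plus strand of GRCm38.p6 with masked bases in lower case and unmasked bases in capitals. The intronic gap of Pax5 at chr4:44541949-44542243 was masked to 65.1%, and that of Pax7 at chr4:139753079-139753340, also intronic, to 3.82%.
Pax5: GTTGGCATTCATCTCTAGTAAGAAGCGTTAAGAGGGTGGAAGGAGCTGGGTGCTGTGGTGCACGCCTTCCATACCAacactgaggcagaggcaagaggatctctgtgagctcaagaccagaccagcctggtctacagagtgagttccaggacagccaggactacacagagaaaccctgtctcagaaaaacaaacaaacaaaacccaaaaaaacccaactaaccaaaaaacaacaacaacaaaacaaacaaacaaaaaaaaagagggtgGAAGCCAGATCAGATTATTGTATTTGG
Pax7: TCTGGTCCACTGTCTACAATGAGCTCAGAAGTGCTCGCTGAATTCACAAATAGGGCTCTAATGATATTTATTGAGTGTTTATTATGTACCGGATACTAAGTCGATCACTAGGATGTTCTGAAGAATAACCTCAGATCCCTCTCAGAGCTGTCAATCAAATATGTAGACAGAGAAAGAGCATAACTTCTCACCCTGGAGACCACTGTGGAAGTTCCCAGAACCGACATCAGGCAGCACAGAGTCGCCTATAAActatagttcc

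The pattern of covered bases within 20 kb of the start was compared with that of all other protein-coding genes by the Jaccard index, the shared covered bases divided by those covered in either. Pax2 and Pax7 were covered over this whole stretch, and Pax8 not at all, so their patterns rank no gene. Pax3, Pax5 and Pax6 were covered to 95.6%, 99.1% and 99.2% of it, and any gene covered over the whole stretch, Pax2 and Pax7 included, reaches an index equal to that share, so genes tie there and only a higher index names a gene. Foxi3 (0.994) stood above this tie for Pax6, and Grip2 (0.965) and Lcn11 (0.959) for Pax3. For the less covered members the index was lower, with Grin1 (0.838) for Pax1, Prr36 (0.788) and Fezf1 (0.784) for Pax4, and Coa7 (0.697) for Pax9.

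Genes that work with the Pax factors were read in the same list, from lists chosen with earlier results of these data known. Of 54 such genes, 38 carried a site inside 1 kb around a TSS, against the 26.9% of all protein-coding genes, and 26 were covered to at least 50%, against 10.1%. Counting only the centre of each site, 18 of the 54 were left near a TSS, against 18.5% of all protein-coding genes. The median share of the gene body was 23.1%. The lists hold mainly developmental regulators and genes of differentiated tissues, and nothing particular to the Pax factors can be read from these counts.

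The partners and targets of Pax4 and Pax6 were the most covered. A site near a TSS was present in 10 of 12, and 9 were covered to at least 50%, with a median of 98.5%. Pdx1, the pancreas factor, Neurog3, which specifies endocrine progenitors, Nkx6-1 and the lens crystallin gene Cryaa were each covered to 100%. Of the hormone genes, Gcg and Ins1 had no site there, while Ins2 had one over a TSS and was covered to 19.7%. In the annotation used Ins2 spans 64726 bp and Ins1 1180 bp, so the share and the covered TSS of Ins2 depend on this gene model.

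Among those of Pax2 and Pax8, 10 of 12 had a site near a TSS and 5 were covered to at least 50%. The thyroid factors Nkx2-1 and Foxe1 and the kidney factor Lhx1 were covered to 100% and Wt1 to 75.4%. Thus the thyroid factors Nkx2-1 and Foxe1 lay under sites while Pax8 did not. Hhex and the iodide transporter gene Slc5a5 had no site near a TSS.

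For Pax1 and Pax9 the count was 5 of 6, with Nkx3-2, a target in the sclerotome, and Uncx covered to 100%, Bmp4 to 63.0% and Meox1 without a site. For Pax3 and Pax7 it was 5 of 8. The muscle factor Myod1 was covered to 100%, the neural crest factor Sox10 to 93.9% and Zic1 to 84.3%, while Mitf, Met and Myf5 had none. For Pax5 it was 2 of 4, with the B cell kinase gene Blk covered to 88.9%, and without a site at Cd79a and Ebf1.

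The homeobox genes of the sine oculis family with the Eya and Dach genes, which form a regulatory network with Pax genes in eye and ear, were divided. A site lay near a TSS in 6 of 12, and 4 were covered to at least 50%, namely Six2 and Six3 at 100%, Six6 at 92.7% and the cofactor gene Eya2 at 72.3%. Dach1 and Dach2 had sites over a TSS, the widest of 3814 bp and 2471 bp, that covered 0.835% and 0.437% of these very long genes. Among the others, Six4, Six5, Eya1, Eya3 and Eya4 had no site near a TSS and no covered base, the same pattern as Pax8 and Pax9.

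**Figure D5:**
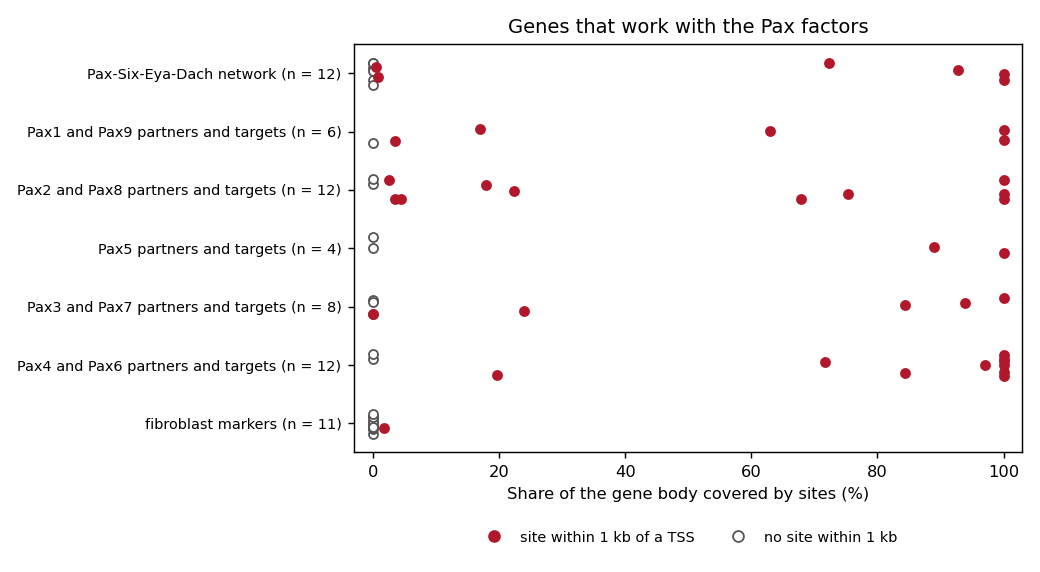
Each point is 1 gene of the lists named on the y axis, placed by the percent of its gene body covered by H3K27me3 sites. Filled points mark genes with such a site no more than 1 kb from a TSS, open points the others. Of the 12 partners and targets of Pax4 and Pax6, 9 lie above 50%, while the fibroblast markers lie at or near 0.

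The labelled cell type was checked in the same way, although a list of H3K27me3 sites holds no expression. Of 11 fibroblast markers, among them Col1a1, Col1a2, Vim, Thy1 and Twist1, 1 had a site near a TSS, Pdgfra, with a site of 810 bp over 1.76% of the gene. Of the markers of other cell types, 2 of 4 for epithelium (Cdh1 and Epcam), 1 of 3 for muscle (Myod1), 2 of 3 for neural cells (Sox2 and Nes) and 2 of 3 for blood (Spi1 among them) had one. Krt8, Krt18, Myog, Des, Tubb3 and Ptprc were without one, and these lists are too short to be read against the 26.9% of all genes.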

How the data were processed

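H3K27me3 was measured by ChIP-seq in 8 libraries of iMEF cells, beside 4 inputs, and groups were read from the sample titles and records. The deposited list used here gives positions (chromosome, start and end) of the sites that the authors identified over all libraries, with no count, signal or score. The study's separate list of sites changed at each time point was not used here. Per the methods and the labels, the authors used Trim Galore on the reads, BWA for alignment to mm10 (GRCm38.p6, GENCODE M25), SAMtools for filtering, Picard to merge replicates and MACS2 within nf-core code to call broad peaks, with libraries scaled to the lowest coverage. Versions, cutoffs and the rule that joined the sites of different libraries are not given in the sources used here. The least width of a site and the distance over which MACS2 bridges a gap are set by the caller, so widths and gaps depend on it.

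Starts were read as counted from 0 and are printed counted from 1. Sites were intersected with genes and the TSSs of all transcripts in GENCODE M21 on chromosomes 1 to 19 and X. A TSS had a nearby site if at least 1 bp lay within 1 kb. CpG islands were maximal-scoring segments of repeat-masked sequence (17 for a CpG, -1 for other bases) of at least 200 bp, with GC of at least 50% and an observed/expected CpG number of 0.6 or more. Python 3.11.15, numpy 2.4.6, scipy 1.17.1 and matplotlib 3.10.9 were used, and the interval code was tested on simulated data. There were 0 columns of per-sample values that stayed unused.

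The design held a count test between time points, which needs values per library and was not run. Shares over all protein-coding genes serve as background in place of tests. The members and the gene lists were chosen with earlier results of these data known. Genes named are the 9 members, genes under their sites, list genes, and some of the 3 genes most like each partly covered member in covered bases near the start. A few list genes enter the counts and are not reported here by name. Genes next to the members were named after their values were seen. Alternatives varied the flank, gene model, least site width, joining distance and the rule for a nearby site.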

Additional observations from a re-analysis of the deposited data

How the results depend on the processing

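The 7 Pax genes with a site over a TSS, and Pax8 and Pax9 without one, were the same under every alternative tried, and so were those with a site within 1 kb, except where only the centre of each site was counted. Then 3 Pax genes remained (against 18.5% of all protein-coding genes), since the centres of the wide sites of Pax2, Pax3, Pax6 and Pax7 lie elsewhere, and 18 of the 54 network and partner genes. The median share of the gene bodies was 72.4% with 2 kb added on either side, 63.8% with 10 kb and 61.5% with 20 kb, and 84.1% with sites of at least 500 bp or of at least 1000 bp. Genes covered to at least 50% then numbered 5 with 20 kb, without Pax1 and Pax4, and 6 with 10 kb or wider sites, without Pax1. The share of all protein-coding genes under these settings was not computed, so no contrast with them can be read from these counts. The median width of the Pax sites was 3474 bp over the gene bodies without flanks and 1502 bp with flanks of 50 kb. With narrower sites than 1000 bp left out, the median width in the windows was 4588 bp (whole list 2233.5 bp), and it was 7769 bp or 17135 bp when sites less than 1000 bp or 3000 bp apart were merged (all merged sites 1443 bp and 2497 bp). RefSeq gene models were chosen after seeing the data. No paired analysis was possible because the list holds no values per library. For the same reason the alternatives of the comparison between time points (other size factors, a replicate block, leaving out a library) were not run. Sites under the authors' cutoff are not listed, so an uncovered gene may carry H3K27me3 below it.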
